A study of Mus musculus with 15 samples.

Results

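The 32 genes described here encode the proteins that bring glucose into the cell, break it down through glycolysis, branch it into the pentose phosphate pathway, turn pyruvate into lactate and export it, and admit pyruvate to the mitochondria. They were listed by name as the usual members of these pathways and not by a threshold on expression, though earlier results of these data were known. All 32 were among the 48795 genes listed in the RSEM output, and 31 of them passed the filter on low counts, as did 13600 genes in all. The exception was Aldoc, a brain-type aldolase. Expression had been measured by RNAseq in iNKT cells, T cells with a near-invariant TCR that recognise lipids on CD1d, to study what shapes the iNKT population of each lymphoid tissue. The cells had been sorted with a PBS57-loaded CD1d tetramer and anti-TCRβ, leaving out cells with CD8, B220, CD11c or CD11b, from untreated wild-type C57BL/6 mice aged 6 weeks. There were 4 samples from thymus, 4 from spleen, 4 from mesenteric lymph nodes (mLN) and 3 from inguinal lymph nodes (iLN), processed in the batches that the labels name First and Second. The study calls its samples biological replicates, but neither the labels nor the methods say whether a sample was 1 mouse or a pool. The p-values therefore measure the spread between these samples, part of which may be technical. Lymph nodes were digested with collagenase, DNAse and NADase at 37 °C and the other tissues only mashed through a strainer, so that tissue preparation and lymph node origin cannot be told apart.

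Glycolysis splits glucose into pyruvate in the cytosol and yields ATP without oxygen. Activated lymphocytes are known for raising glucose uptake and lactate export, and the transcription factors HIF-1 and MYC are known drivers of many of these genes. The pentose phosphate pathway draws on the same hexose phosphates to make NADPH and ribose for nucleotides. Pyruvate either becomes lactate or enters mitochondria through pyruvate dehydrogenase, which its kinases switch off.

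Libraries held between 1152702 (thymus replicate 2) and 8670570 expected counts, and the 32 genes together took 0.211% to 0.341% of them. Markers of other cell types were low beside those of T cells, and the sums of myeloid and stromal cell genes are given below. The summed level of 5 T and iNKT cell genes lay between 1818 and 2998 CPM (counts scaled to an equal library total), that of 6 B cell genes reached 147 CPM in spleen replicate 1 and was 8.41 CPM or less in every mLN and iLN library, and that of 7 red cell genes was 24.2 to 118 CPM in spleen, 1.71 to 15.2 CPM in thymus and at most 4.84 CPM in lymph nodes. CPM values here include the TMM factors and allow a gene to be compared between samples. Levels of different genes are compared in TPM, which is per transcript length.

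Few of these genes differed detectably between iNKT cells of the 4 tissues. Of the 31 genes tested, Slc2a3, the high-affinity glucose transporter GLUT3, was highest in spleen. It was called lower in iLN than in spleen, and in lymph nodes than in spleen and thymus averaged. In mLN against spleen it passed a wider threshold only. Pgam1, the phosphoglycerate mutase of lower glycolysis, varied between tissues with high levels in thymus and iLN. Pdk1, a kinase that inhibits pyruvate dehydrogenase, was lowest in thymus and passed a wider threshold in edgeR and the stricter threshold in DESeq2. No gene of upper glycolysis, lactate dehydrogenase or the pentose phosphate pathway passed in any comparison. A call required an adjusted p under 0.01 (edgeR's quasi-likelihood test, Benjamini-Hochberg) together with a fold change over 1.5, and the wider threshold was an adjusted p under 0.05 alone.

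Across the 4 tissues together, 2 of the 31 genes were called, Slc2a3 (adjusted p = 0.00236, edgeR) and Pgam1 (adjusted p = 0.00826), where 3.38% of all genes were, and 5 had an unadjusted p under 0.05 (19.4% of all genes). In the comparison of lymph nodes with spleen and thymus, mLN and iLN being averaged on 1 side and spleen and thymus on the other, 1 was called (Slc2a3) against 1.72% of all genes, and between iLN and spleen 1 was called (Slc2a3) against 1.55%, with 4 genes at an unadjusted p under 0.05 in each (17.6% and 16.4% of all genes). None was called between thymus and spleen, mLN and spleen, mLN and thymus, iLN and thymus, or iLN and mLN, where 1.32%, 0.654%, 1.6%, 1.5% and 0.471% of all genes were. These 5 counts of 0 stood beside 8, 2, 6, 6 and 4 genes at an unadjusted p under 0.05 in edgeR (10.6%, 12.2%, 13.5%, 16.5% and 13.8% of all genes). In the same comparisons DESeq2 called 1, 1, 2, 1 and 0 genes. The share of all genes that DESeq2 called is not given here, so its counts have no background beside them. At the wider threshold thymus and spleen differed in 1 gene (2.6% of all genes), mLN and spleen in 1 (1.37%), iLN and spleen in 1 (3.9%), mLN and thymus in 2 (2.85%), iLN and thymus in 1 (3.44%), iLN and mLN in 0 (1.35%), lymph nodes from spleen and thymus in 2 (4.26%), and the 4 tissues together in 3 (6.57%). These comparisons share samples, so their counts are not independent. A share of 1 or 2 genes of 31 was of the size of the background.

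The 31 genes were measured more precisely than the typical gene. They had a median level of 44.5 CPM and a median biological coefficient of variation of 0.277, against 15.8 CPM and 0.426 over all genes tested. Between lymph nodes and spleen with thymus, the 95% interval of the fold change lay within 2-fold in both directions for 21 of the 31 genes, and for 48% of all genes. Their median log2 fold change was 0.14, beside 0.02 over all genes, with 22 genes above 0 and 9 below. Between thymus and spleen the interval lay within 2-fold for 13 genes (35.2% of all genes), and the median log2 fold change was -0.04 beside -0.01. In mLN against spleen, iLN against spleen, mLN against thymus, iLN against thymus and iLN against mLN the interval lay within 2-fold for 17, 14, 15, 17 and 16 genes (34.3%, 27.5%, 33.3%, 26.6% and 28.9% of all genes). The samples of a pair of tissues did not overlap for 5 genes in thymus and spleen (8.62% of all genes), 1 in mLN and spleen (6.18%), 3 in iLN and spleen (12.9%), 4 in mLN and thymus (8.04%), 5 in iLN and thymus (13.3%) and 2 in iLN and mLN (8.46%), and for 0 genes did all lymph node samples stand apart from all spleen and thymus samples (0.669%).

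**Figure D1:**
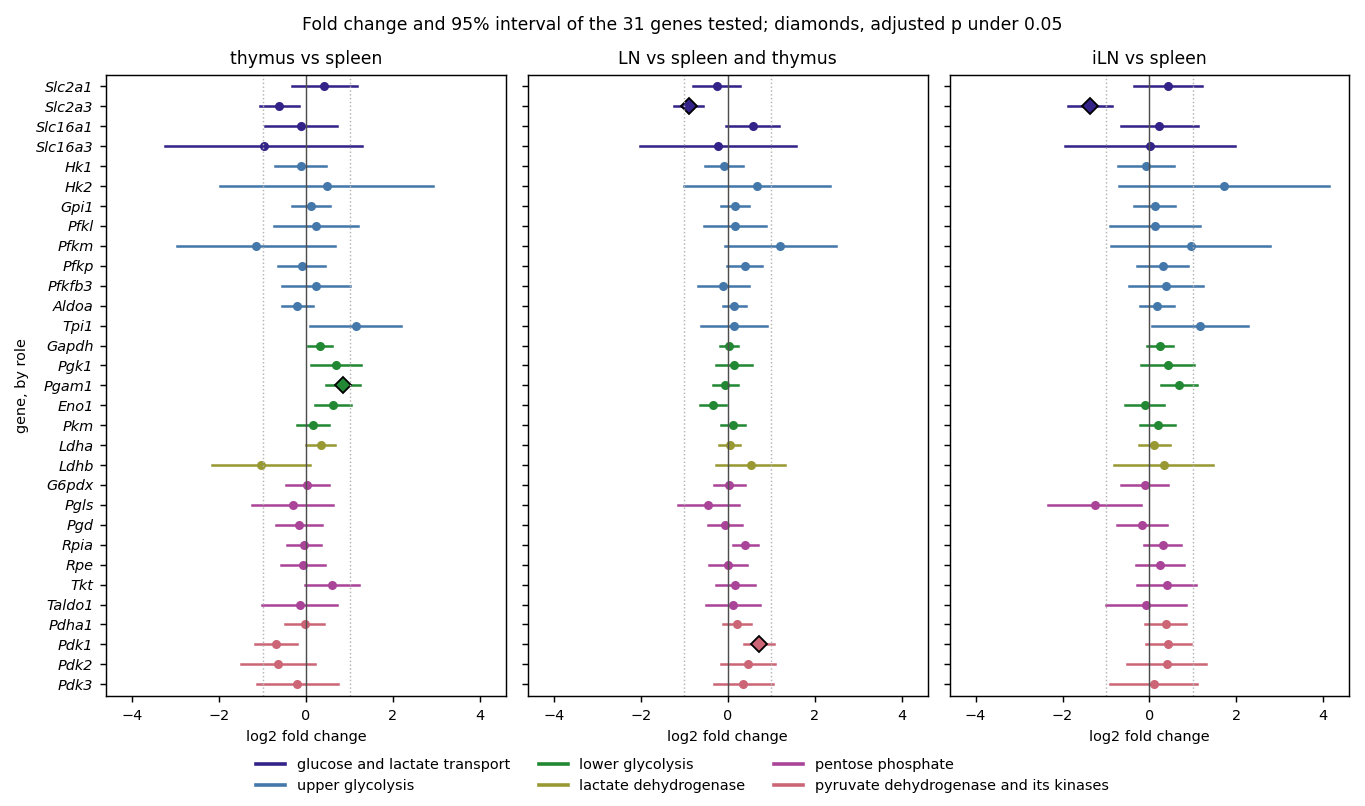
Log2 fold change (x axis, points) with its 95% interval (lines) for the 31 genes tested, ordered by role on the y axis and coloured by it, in thymus against spleen, in lymph nodes (LN, mLN and iLN averaged) against spleen and thymus averaged, and in iLN against spleen. Dotted lines mark 2-fold. Diamonds mark an adjusted p under 0.05, which Pgam1 reached in the first panel, Slc2a3 and Pdk1 in the second, and Slc2a3 in the third.

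The pathway was dominated by a few abundant mRNAs. Gapdh, the dehydrogenase at the start of the energy-yielding steps, had a median of 995 TPM over the 15 libraries and held 42.3% of the summed median TPM of the 32 genes. It was followed by Ldha (299 TPM), the lactate dehydrogenase subunit that favours lactate, Aldoa (152 TPM), the aldolase that cuts fructose bisphosphate, and Eno1 (145 TPM), the enolase. Pgam1, Gpi1 (the glucose phosphate isomerase) and Pkm (pyruvate kinase) followed at 84.2, 82.9 and 80.4 TPM, a difference well within their range over libraries of 38.5 to 129, 54.9 to 124 and 53.5 to 108 TPM. At the other end stood Slc16a3 (1.06 TPM), the lactate exporter MCT4, Hk2 (0.98 TPM), an inducible hexokinase, and Aldoc (0.08 TPM). Aldoc was at 0 counts in 7 of 15 libraries and had at most 16 counts, in spleen replicate 2.

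**Figure D2:**
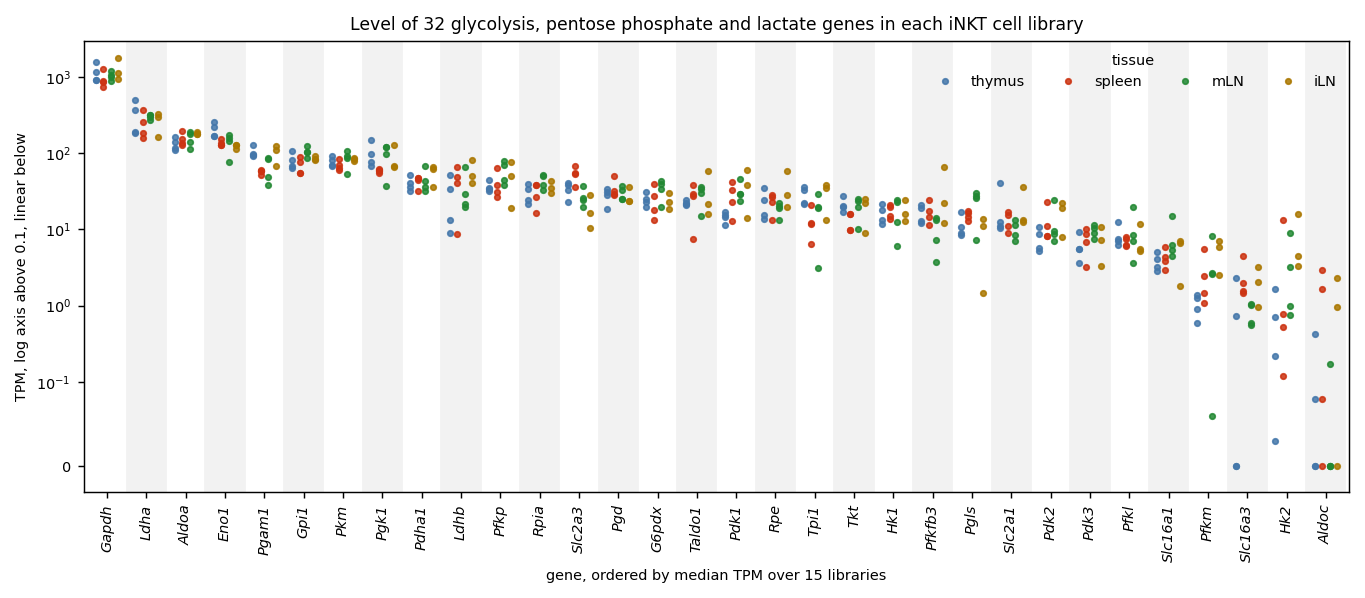
TPM (y axis, logarithmic above 0.1 and linear below) of each of the 32 genes in each of the 15 libraries, 1 point a library, coloured by tissue, with genes ordered by their median from Gapdh (995 TPM) to Aldoc (0.08 TPM). Colours overlap for most genes, and the points of the 4 least expressed genes spread most.

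Promoter sequence was examined because HIF-1 binds a core of the letters ACGTG and MYC an E-box of the letters CACGTG, which contains ACGTG on both strands. Windows of 250 bases before to 50 after a transcription start were taken from RefSeq (GRCm38.p6), 46 windows for 31 of the 32 genes. Slc2a3 had no window in this table. ACGTG was present on either strand in 20 of 46 windows (43.5%), belonging to 17 genes, beside 25.7% of 11598 windows of the genes tested. CACGTG was present in 5 of 46 windows (10.9%) beside 10.1%, those of Ldha, Slc16a1, Pfkfb3, Pdk2 and Pfkm. The windows of Pgam1 and Pdk1, the pair of genes beside Slc2a3 that passed a threshold, are printed with that of Ldha, which had the most matches. ACGTG and its reverse complement CACGT are in capitals. Pgam1 (chr19:41911621-41911920, + strand) held 1, Pdk1 (chr2:71872974-71873273, + strand) held 0, and Ldha (chr7:46845554-46845853, + strand) held 5 counted over both strands, with 2 CACGTG among them.
Pgam1: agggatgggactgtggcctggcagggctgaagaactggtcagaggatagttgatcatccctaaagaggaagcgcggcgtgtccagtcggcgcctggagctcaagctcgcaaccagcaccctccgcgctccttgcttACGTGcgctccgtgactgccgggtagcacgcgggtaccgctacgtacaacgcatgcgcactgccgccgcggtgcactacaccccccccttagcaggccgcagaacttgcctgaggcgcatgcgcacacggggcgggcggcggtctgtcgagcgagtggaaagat
Pdk1: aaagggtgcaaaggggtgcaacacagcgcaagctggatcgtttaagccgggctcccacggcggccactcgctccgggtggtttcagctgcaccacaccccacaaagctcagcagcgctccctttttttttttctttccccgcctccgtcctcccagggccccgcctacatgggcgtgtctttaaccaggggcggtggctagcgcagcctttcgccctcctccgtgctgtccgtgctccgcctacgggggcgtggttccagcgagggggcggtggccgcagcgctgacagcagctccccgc
Ldha: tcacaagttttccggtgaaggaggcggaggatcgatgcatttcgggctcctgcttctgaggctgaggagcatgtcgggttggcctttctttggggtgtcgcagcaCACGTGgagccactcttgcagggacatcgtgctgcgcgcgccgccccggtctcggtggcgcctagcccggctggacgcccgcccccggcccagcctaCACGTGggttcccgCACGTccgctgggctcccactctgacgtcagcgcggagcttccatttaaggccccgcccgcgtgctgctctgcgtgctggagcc
Any link between these matches and differences between tissues was not tested, and Slc2a3 could not be examined. A match of letters is a description and not a binding site.

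Among the transporters, Slc2a3 (chromosome 6, 122727809 to 122801640, GRCm38) differed most. Its level was 170.2, 177, 161 and 164 CPM in the spleen libraries (replicates 1 to 4), 118, 111, 96.4 and 114 CPM in thymus, 79.9, 110.3, 66.9 and 74.3 CPM in mLN, and 88.8, 72.4 and 31.1 CPM in iLN (replicates 2 to 4). All 4 spleen libraries were above all 11 others, whereas thymus and mLN overlapped through mLN replicate 2. The means were 168 ± 7.20 CPM in spleen (SD, n = 4), 109.7 ± 9.28 in thymus (n = 4), 82.9 ± 19.1 in mLN (n = 4) and 64.1 ± 29.7 in iLN (n = 3). The log2 fold change of Slc2a3 was -1.37 ± 0.24 (SE) in iLN against spleen (adjusted p = 0.00234, edgeR), and -1.04 ± 0.22 in mLN against spleen (adjusted p = 0.0162), which passed the wider threshold only, and not without mLN replicate 3 or spleen replicate 4 (adjusted p = 0.0716 and 0.0672). It was -0.61 ± 0.21 in thymus against spleen (adjusted p = 0.204) and -0.34 ± 0.23 in iLN against mLN (adjusted p = 0.565), neither of which passed. For lymph nodes against spleen and thymus it was -0.90 ± 0.16 (adjusted p = 0.00225), and was called whichever of the 15 libraries was left out. In fits of 1 batch this value was -1.13 in batch First (adjusted p = 0.0303) and -0.62 in batch Second (adjusted p = 0.354), where iLN had 1 sample, assumed to vary like the other tissues. The call in iLN against spleen was lost without spleen replicate 4 (adjusted p = 0.0113, log2 fold change -1.33) and in a fit of these tissues alone (adjusted p = 0.0469).

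Several measures other than glucose transport moved with the same contrast as Slc2a3. Tbx21, the factor of NKT1 cells, had a mean of 73.2 CPM in spleen and 66.8 CPM in thymus and of 43.8 and 29.5 CPM in mLN and iLN. The summed level of 10 immediate early genes, which respond to TCR signals and to cell handling, was 116 to 337 CPM in lymph nodes, and 21.3 to 104 CPM in spleen and thymus, without overlap, and 5 of the 7 tested were called higher in lymph nodes. Of 5 red cell genes tested 2 were called lower in lymph nodes than in spleen and thymus, and the red cell sum given above was highest in spleen. Their part in the level of Slc2a3 was not tested. In RNA from sorted populations, fewer cells of a subset and less mRNA in each cell cannot be told apart.

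The other transporters did not pass a threshold. Slc2a1, the glucose transporter GLUT1 that activated T cells use, had a median of 12.4 TPM over the 15 libraries (range 7.12 to 40.4) beside 32.6 TPM for Slc2a3 (range 10.3 to 67.9). In CPM Slc2a1 was 27.7, 16.7, 35.1 and 31.9 in spleen, 25.5, 59.5, 32.8 and 32.6 in thymus, 14.0, 15.4, 28.3 and 21.0 in mLN and 55.4, 30.3 and 25.8 in iLN. The tissues overlapped in every pair, and the log2 fold changes furthest from 0 were 0.93 ± 0.38 in iLN against mLN (adjusted p = 0.264, edgeR) and -0.93 ± 0.36 in mLN against thymus (adjusted p = 0.229). Slc16a1, the lactate carrier MCT1, ranged in tissue means from 12.9 ± 2.08 CPM in thymus to 25.3 ± 15.1 CPM in mLN, where mLN replicate 2 alone reached 47.6 CPM. Slc16a3 was between 0 and 6.10 CPM in every library.

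**Figure D3:**
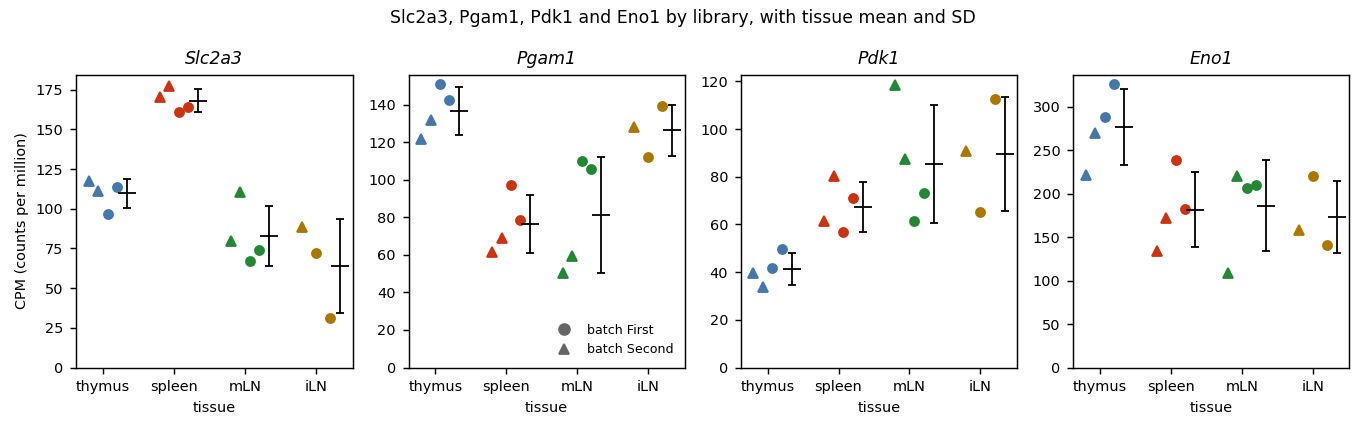
CPM (y axis, from 0) of Slc2a3, Pgam1, Pdk1 and Eno1 in each library, by tissue on the x axis. Circles are batch First, triangles batch Second, and bars the tissue mean and SD. Spleen stands above the other tissues for Slc2a3 (168 ± 7.20 CPM), thymus and iLN above spleen for Pgam1, and thymus below spleen, mLN and iLN for Pdk1.

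In upper glycolysis 9 of 10 genes were tested and none passed a threshold in any comparison. Hk1, the constitutive hexokinase, had tissue means of 45.0 to 51.5 CPM and Gpi1 of 136 to 168 CPM, with adjusted p values over the 4 tissues of 0.958 and 0.778 (edgeR). The phosphofructokinase genes, whose enzyme commits hexose to glycolysis, were ordered Pfkp, Pfkl and Pfkm by median TPM (38.8, 7.08 and 2.48). Pfkp was 91.3 ± 13.0 CPM in spleen, 84.6 ± 10.7 in thymus, 119 ± 26.1 in mLN and 111 ± 61.6 in iLN. Pfkfb3, which makes the activator of phosphofructokinase, had tissue means from 25.8 ± 11.4 CPM in mLN to 42.8 ± 22.3 CPM in iLN. Aldoa lay between 139 ± 22.9 CPM in thymus and 188 ± 42.2 CPM in iLN. Tpi1, the triose phosphate isomerase, was 5.72, 12.0, 19.2 and 19.5 CPM in spleen, 24.4, 31.6, 30.6 and 32.1 CPM in thymus, 2.2, 20.7, 24.8 and 19.5 CPM in mLN and 38.8, 19.2 and 33 CPM in iLN. All thymus libraries were above all spleen libraries, and the log2 fold change of 1.14 ± 0.50 had an adjusted p of 0.390 (edgeR). The low value of mLN replicate 1 rested on 17 counts, against 101 to 143 in the other mLN libraries. Hk2 had 1 to 49 counts a library. Its 95% interval in lymph nodes against spleen and thymus ran from -1.02 to 2.34 on the log2 scale, so that a rise of several-fold was not excluded.

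In lower glycolysis all 5 genes were tested, and their log2 fold changes in thymus against spleen were all above 0, with a median of 0.61. Of these only Pgam1 passed the wider threshold. Pgam1 (chromosome 19, 41911923 to 41918660, GRCm38) was 121, 132, 151 and 143 CPM in thymus, 61.3, 69.0, 96.9 and 78.5 CPM in spleen, 50.3, 59.3, 109.8 and 106 CPM in mLN and 128, 112 and 139 CPM in iLN. Thymus and iLN libraries were all above all spleen and mLN libraries, and spleen and mLN overlapped. The means were 137 ± 12.9, 76.4 ± 15.4 and 81.3 ± 30.9 CPM in thymus, spleen and mLN (SD, n = 4 each) and 126 ± 13.7 CPM in iLN (n = 3). The log2 fold change of Pgam1 was 0.85 ± 0.19 in thymus against spleen (adjusted p = 0.0136, edgeR) and -0.80 ± 0.19 in mLN against thymus (adjusted p = 0.0202). It was 0.69 ± 0.20 in iLN against spleen (adjusted p = 0.0598) and 0.64 ± 0.20 in iLN against mLN (adjusted p = 0.118), which did not pass. In batch First and batch Second alone, thymus against spleen gave 0.73 and 0.94, and mLN against thymus -0.45 and -1.20, with adjusted p values from 0.157 to 0.469. Both mLN libraries of batch Second were below both of batch First, and Pgam1 was lower in batch Second as a whole by a log2 fold change of -0.43 (adjusted p = 0.04996). The call over the 4 tissues was lost without batch in the model (adjusted p = 0.0701) and on leaving out any of 11 of the 15 libraries, with adjusted p values of 0.00523 to 0.0284 over all 15. At the wider threshold, thymus against spleen no longer passed without spleen replicate 1 or 4 or thymus replicate 1 or 2 (adjusted p of Pgam1 0.0502 to 0.0671), and mLN against thymus without mLN replicate 1 or 2 or thymus replicate 1, 2 or 3 (0.0554 to 0.0718). Without batch in the model these were 0.0975 and 0.150.

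Eno1 was 221, 269.8, 288 and 326 CPM in thymus, 134, 172, 238 and 182 CPM in spleen, 108, 219.8, 207 and 210.1 CPM in mLN and 159, 220.0 and 141 CPM in iLN. All thymus libraries were above all mLN and iLN libraries, while thymus replicate 1 lay below spleen replicate 3. The log2 fold change was -0.72 ± 0.22 in iLN against thymus (adjusted p = 0.0747, edgeR) and 0.61 ± 0.20 in thymus against spleen (adjusted p = 0.137), and over the 4 tissues Eno1 did not pass (adjusted p = 0.0826). In alternative settings that adjusted p over the 4 tissues lay on either side of 0.05. Gapdh was 598 ± 93.7 CPM in spleen, 751 ± 26.1 in thymus, 657 ± 36.4 in mLN and 713 ± 124 in iLN, and its tissue means differed by at most 1.26-fold. In lymph nodes against spleen and thymus its log2 fold change of 0.02 had a 95% interval of -0.18 to 0.23. Gapdh has 85 annotated copies of at least 95% identity over 200 bases or more, which took 5.14% to 14.9% of the counts of the gene and its copies together, so that part of its fragments may have been assigned elsewhere. Pgk1, the phosphoglycerate kinase, had tissue means from 78.8 ± 25.6 CPM in spleen to 123 ± 18.5 CPM in thymus, and Pkm from 128 ± 31.3 CPM in spleen to 149.7 ± 36.9 CPM in iLN.

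Neither lactate dehydrogenase gene passed a threshold. Ldha had tissue means of 248 ± 45.8 CPM in spleen, 319 ± 97.0 in thymus, 304 ± 21.8 in mLN and 256 ± 43.3 in iLN, with a log2 fold change in lymph nodes against spleen and thymus of 0.04 (95% interval -0.20 to 0.28). Ldhb, the subunit that favours pyruvate, varied more, from 10.1 ± 4.41 CPM in thymus to 26.6 ± 2.37 CPM in iLN. All 3 iLN libraries (23.9 to 28.2 CPM) were above all 4 thymus libraries (4.74 to 15.4 CPM), and the log2 fold change of 1.36 ± 0.57 had an adjusted p of 0.229 (edgeR).

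None of the 7 pentose phosphate genes passed a threshold. In the oxidative branch, G6pdx, which makes NADPH at the first step, had tissue means of 38.7 to 50.4 CPM and Pgd, which makes NADPH again, of 48.8 to 53.0 CPM. Pgls, the lactonase between them, was 11.3, 8.87, 18.4 and 10.6 CPM in spleen, 8.27, 7.35, 11 and 13.7 CPM in thymus, 4.02, 13.9, 19.8 and 15.6 CPM in mLN and 2.15, 9.48 and 7.18 CPM in iLN. It overlapped between all tissues and was lowest in iLN replicate 2, and the log2 fold change of -1.31 ± 0.50 in iLN against mLN had an adjusted p of 0.236 (edgeR). In the branch that rearranges sugars, Rpia, which makes ribose phosphate, was 76.9, 85.5, 50.8 and 63.2 CPM in spleen, 76.5, 69.4, 66.0 and 54.0 CPM in thymus, 113, 122, 73.5 and 75.2 CPM in mLN and 69.6, 84.1 and 85.1 CPM in iLN. The mLN libraries of batch Second were the highest of all, and in lymph nodes against spleen and thymus the log2 fold change of 0.40 ± 0.14 had an adjusted p of 0.115 (edgeR). Rpe (35.5 to 51.4 CPM by tissue mean), the transketolase Tkt (31.4 to 46.6 CPM) and the transaldolase Taldo1 (17.0 to 21.6 CPM) had adjusted p values over the 4 tissues of 0.548, 0.526 and 0.945. Reads of Rpe and Kansl1l may not be told apart where their transcripts overlap, and likewise those of Pfkp and Pitrm1 and of Pdha1 and Map3k15.

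At the mitochondrial entry of pyruvate, Pdk1 (chromosome 2, 71873224 to 71903858, GRCm38) was 39.5, 33.8, 41.9 and 49.9 CPM in thymus, 61.6, 80.2, 56.8 and 71.1 CPM in spleen, 119, 87.6, 61.6 and 73.0 CPM in mLN and 91.0, 65.1 and 113 CPM in iLN. All 4 thymus libraries were below all 11 others, and spleen, mLN and iLN overlapped. The means were 41.3 ± 6.67 CPM in thymus, 67.4 ± 10.4 in spleen and 85.2 ± 24.7 in mLN (SD, n = 4 each) and 89.5 ± 23.8 in iLN (n = 3). At the wider threshold Pdk1 was higher in iLN than in thymus (log2 fold change 1.12 ± 0.25, adjusted p = 0.0135, edgeR), in mLN than in thymus (1.02 ± 0.23, adjusted p = 0.0182) and in lymph nodes than in spleen and thymus (0.73 ± 0.17, adjusted p = 0.0157). Against spleen the log2 fold changes of Pdk1 were 0.44 ± 0.24 in iLN (adjusted p = 0.408), 0.33 ± 0.23 in mLN (adjusted p = 0.618) and -0.69 ± 0.23 in thymus (adjusted p = 0.173). Within batches First and Second, iLN against thymus gave 0.95 and 1.29, and mLN against thymus 0.54 and 1.49, and neither batch alone passed a threshold. Over the 4 tissues the adjusted p of Pdk1 was 0.0203 in edgeR, and Pdk1 was called by DESeq2 (adjusted p = 0.000736) and without a filter on low counts (adjusted p = 0.00234). Without iLN replicate 4 the comparison with thymus gave 0.86 (adjusted p = 0.0871) and that of lymph nodes with spleen and thymus 0.59 (adjusted p = 0.0581). The comparison of mLN with thymus no longer passed without mLN replicate 1 (0.83, adjusted p = 0.0604) or without thymus replicate 1, 2 or 3 (adjusted p = 0.0837, 0.0804 and 0.0509). Rag1, a marker of immature thymocytes, averaged 13.2 CPM in thymus and at most 0.0376 CPM in any other tissue, and the summed level of 7 myeloid genes was 48.5 to 79.4 CPM in thymus and at most 55.5 CPM elsewhere, most of the thymus sum being Fcer1g (57.8 CPM). Of 3 myeloid genes tested in thymus against spleen, Fcer1g was called higher (log2 fold change 3.59, adjusted p = 3.7e-05, edgeR). Lyz2 was called lower (-5.86, adjusted p = 0.00997, edgeR). The part of these markers in the level of Pdk1 was not tested. Pdk2, Pdk3 and Pdha1, the catalytic subunit itself, had tissue means of 12.4 to 24.2, 7.85 to 12.0 and 82.9 to 109 CPM and did not pass. All 4 genes of this group had positive log2 fold changes in iLN against thymus and in mLN against thymus.

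**Figure D4:**
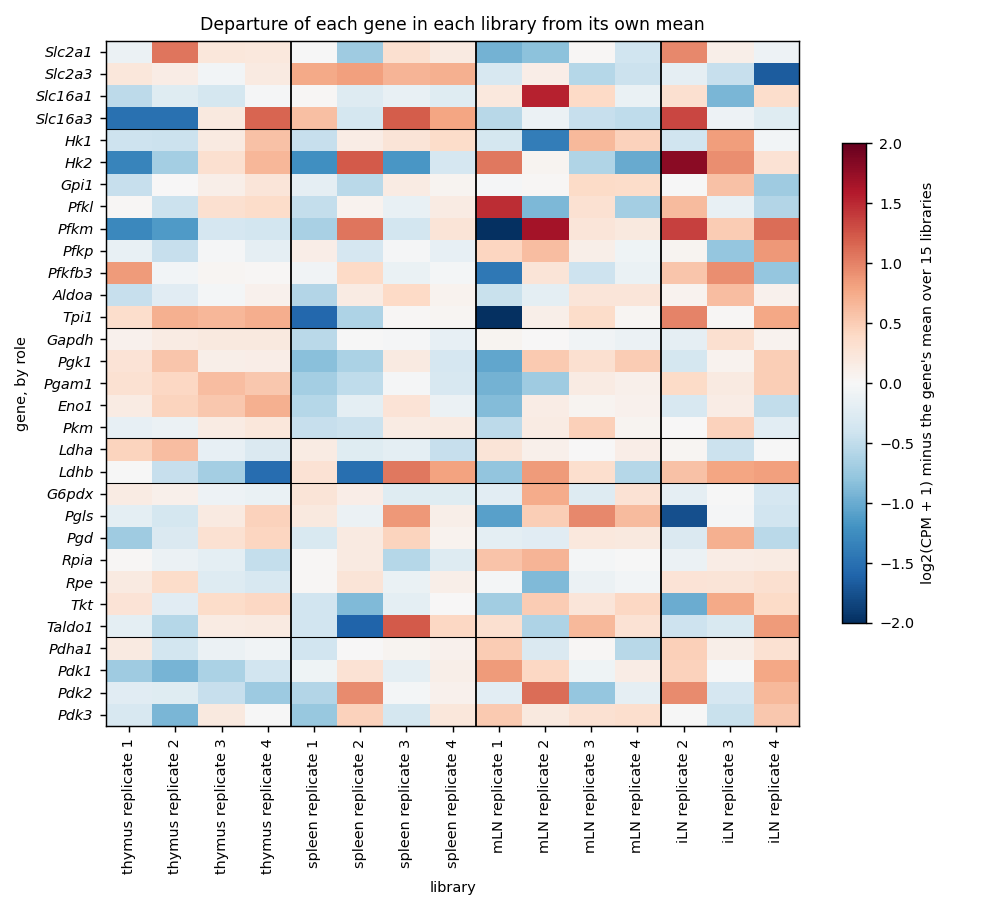
Departure of log2(CPM + 1) from the gene's own mean over 15 libraries (colour, red above and blue below, limited to 2 in either direction) for the 31 genes tested (y axis, by role) in each library (x axis, by tissue). Slc2a3 is red in all 4 spleen libraries, Pdk1 blue in all 4 thymus libraries, and mLN replicate 1 is blue across much of lower glycolysis.

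The lowest and highest values of the 31 genes were also counted by library. Of the 31 genes, 8 had their lowest CPM of all 15 libraries in mLN replicate 1, namely Slc2a1, Pfkm, Pfkfb3, Tpi1, Pgk1, Pgam1, Eno1 and Pkm, and 7 had their highest in iLN replicate 3. In no other library did more than 3 genes have their lowest or more than 5 their highest. The shares of all genes with their lowest or highest value in these libraries are not given here, so these counts have no background beside them. Between batches no gene of the 31 was called, where 3.82% of all genes were, and the lowest adjusted p was that of Hk1 (log2 fold change -0.88 in batch Second against First, adjusted p = 0.0111, edgeR).

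For enzymes and carriers with alternative genes, the share of 1 gene in the summed TPM of its family was compared between the 7 lymph node and the 8 spleen and thymus samples. None of 7 shares passed a two-sided exact permutation test over all samples (adjusted p of 0.351 or more), in which 6435 arrangements allow a smallest p of 0.000155. The share of Slc2a3 in Slc2a1 and Slc2a3 was 61.6% ± 15.1 (SD, n = 7) in lymph nodes and 73.5% ± 10.9 (n = 8) in spleen and thymus (difference -11.9 percentage points, exact p = 0.1002, adjusted p = 0.351). By tissue it was 80.0% ± 4.41 in spleen, 67.0% ± 12.1 in thymus, 71.8% ± 10.2 in mLN and 48% ± 6.28 in iLN, so that the 3 iLN samples lay below all spleen and all mLN samples. The share of Hk2 in Hk1 and Hk2 was 24.6% ± 19.9 in lymph nodes and 7.80% ± 12.9 in spleen and thymus (difference 16.8 percentage points, exact p = 0.0726, adjusted p = 0.351), and ranged over the libraries from 0.255% to 55.2%. With expected counts in place of TPM the difference was only 4.80 percentage points for Hk2 and -7.81 points for Slc2a3 (exact permutation test, adjusted p = 0.396 for each). In TPM, within batches First and Second, the difference was 4.87 and 33.5 percentage points for Hk2 and -16.5 and -5.86 points for Slc2a3. Without spleen replicate 2 that of Hk2 was 21.2 points and passed (exact permutation test, adjusted p = 0.0490). The share of Pdk1 in the 3 kinases was 59.3% and 54.7% (exact p = 0.185), that of Ldhb in Ldha and Ldhb 13.6% and 11% (exact p = 0.455), that of Slc16a3 in Slc16a1 and Slc16a3 20.2% and 24.5% (exact p = 0.670), that of Pfkp in the 3 phosphofructokinases 79.3% and 79.4% (exact p = 0.984) and that of Aldoc in Aldoa and Aldoc 0.264% and 0.408% (exact p = 0.656).

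**Figure D5:**
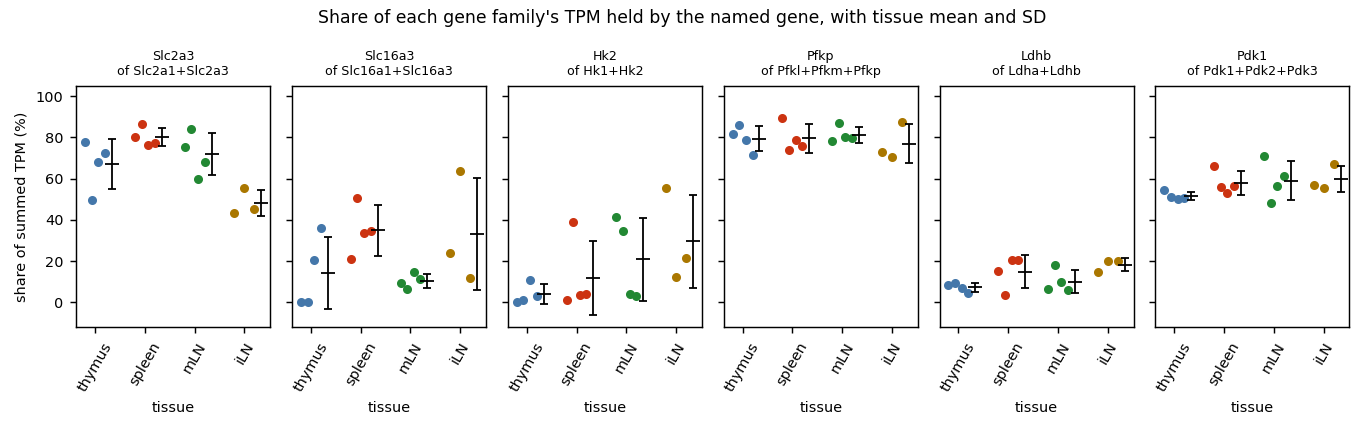
Share (y axis, percent of summed TPM) of the named gene within its family in each library, by tissue on the x axis, with tissue mean and SD. The mean share of Slc2a3 is 80.0% in spleen and 48% in iLN, the shares of Hk2 and Slc16a3 scatter widely within tissues, and that of Pfkp stays near 80% in all tissues.

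Other genes of these pathways were taken from lists of less used isoforms. Of 32 further genes of glucose handling 16 passed the filter on low counts, of 8 further pentose phosphate genes 7, and of 11 partners of pyruvate dehydrogenase 9. None of them was called in any of the 7 comparisons, and at the wider threshold only Prps2, a ribose phosphate pyrophosphokinase, was higher in thymus than in spleen (log2 fold change 0.78 ± 0.18, adjusted p = 0.0174, edgeR). Their median log2 fold changes in lymph nodes against spleen and thymus were 0.09, -0.42 and 0.17. Of 22 regulators of glycolysis 19 were tested, and Epas1, which encodes HIF-2α, was called higher in lymph nodes than in spleen and thymus (1.59 ± 0.21, adjusted p = 0.000125), with means of 73.3 ± 26.0 CPM in mLN, 44.5 ± 13.6 in iLN, 23.5 ± 3.90 in spleen and 14.9 ± 2.30 in thymus. All lymph node libraries (32.1 CPM or more) were above all spleen and thymus libraries (29.3 CPM or less). Hif1a itself was 97.8 ± 25.6 CPM in spleen, 71.3 ± 16.7 in thymus, 102 ± 13.0 in mLN and 90.4 ± 22.1 in iLN. Myc was called higher in thymus than in spleen (1.34 ± 0.27, adjusted p = 0.00709), at 107 ± 9.87 against 42.7 ± 14.2 CPM, a call lost in 11 of 25 other settings (adjusted p up to 0.342), among them leaving out any thymus library, spleen replicate 1, 3 or 4, or mLN replicate 3. Of 16 HIF-1 targets outside glycolysis 11 were tested, and 1 was called, the oxidoreductase Ero1l, which was lower in thymus than in spleen (-0.98 ± 0.16, adjusted p = 0.00110) and higher in iLN than in thymus (1.30 ± 0.17, adjusted p = 0.000145). Their median log2 fold change in lymph nodes against spleen and thymus was 0.33, beside 0.02 over all genes.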

How the data were processed

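RNA of sorted iNKT cells (15 samples, 101-base paired reads, Nugen Ovation ultralow kit) was trimmed and quantified by the authors. The submitters' processing notes name cutadapt 1.7.1, RSEM 1.2.31, Bowtie2 2.2.9 and GRCm38.p6; the annotation release is not given in the sources used here. The deposited expected counts are RSEM's estimates of fragments per gene, with fragments of near-identical copies shared between genes. Deposited TPM values, also made by the authors with RSEM, are per effective length and scaled to an equal sum. The FPKM values that the authors deposited were not used. Of 48795 gene identifiers 48349 matched a symbol.

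Expected counts were rounded to whole numbers, filtered with filterByExpr and normalized with TMM in edgeR 4.0.16 (R 4.3.3, limma 3.58.1). The robust quasi-likelihood model held tissue and batch over all 15 samples, tested the 6 tissue pairs, both lymph nodes averaged against spleen with thymus averaged, and any difference among the 4 tissues, and adjusted p over 13600 genes. The adjusted p threshold of 0.01 and the fold threshold of 1.5 are those the study used, and the wider threshold of 0.05 was added here. CPM are counts scaled to an equal, TMM-adjusted library total. Shares of TPM were tested by exact permutation (numpy 2.4.6). DESeq2 1.42.0, other scalings, filters and designs, each batch alone and leaving out each library were alternatives. Scripts were tested on simulated data. No pair of replicates agreed within sampling noise. Libraries held 1152702 to 8670570 counts, and their depth limits genes with few counts.

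Values in every sample are given for genes called in at least 1 comparison and, to make 8, for those with the smallest p over the 4 tissues, which gave Slc2a3, Pgam1, Pdk1, Eno1, Rpia, Slc2a1, Tpi1 and Pgls. The gene set and the lists were chosen with earlier results of these data known. Samples of different tissues with the same replicate number correlated in their departures from tissue means with a mean r of 0.122 and a lowest of 0.0015. Those of the same batch with different numbers had a mean r of 0.107. Of 15 samples, 13 correlated best with a sample of their own number. The labels do not say whether equal numbers come from the same mice. For clonotype frequencies from its RNAseq samples the study used a paired t-test, without stating what was paired. Numbers were not taken to pair samples, and the replicate block was run as an alternative.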

Additional observations from a re-analysis of the deposited data

Results flagged for a closer look

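Within tissues of 4 samples, 7 of 114 sets of values (6.14%) had a highest or lowest sample further from the others than Dixon's 95% limit, where chance gives about 1 in 20. Pfkfb3 measured 42.8 CPM in spleen replicate 2 against 29.4 to 31.3 CPM in the other spleen samples, and 59.1 CPM in thymus replicate 1 against 30.9 to 33.1 CPM in the other thymus samples. The share of Hk2 in Hk1 and Hk2 was 38.8% in spleen replicate 2 against 0.874% to 3.82% in the other spleen samples, and rested there on 37 counts of Hk2. Eno1 measured 108 CPM in mLN replicate 1 against 207 to 219.8 CPM in the other mLN samples. Rpe measured 22.3 CPM in mLN replicate 2 against 38.5 to 40.7 CPM in the others. The share of Aldoc in Aldoa and Aldoc was 0.361% in thymus replicate 3 against at most 0.0567%, and 0.0884% in mLN replicate 4 against 0% in the others, on 4 and 1 counts of Aldoc.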

How the results depend on the processing

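Counts of genes called depended on the settings. The share of all genes called is not given for these settings, so the counts have no background beside them. DESeq2 called 1 gene between thymus and spleen, 1 between mLN and spleen, 2 between mLN and thymus, 1 between iLN and thymus and 2 between lymph nodes and spleen with thymus; without a filter on low counts these were 1, 1, 1, 1 and 2. With at least 10 counts in every sample, 1 gene was called between mLN and spleen and 1 between iLN and thymus. A fit of the groups compared alone called 2 genes between thymus and spleen and 0 between iLN and spleen. Either batch alone called 0 genes between iLN and spleen, between lymph nodes and spleen with thymus, and over the 4 tissues; fewer samples enter these fits. Over the 4 tissues DESeq2 and no filter on low counts each called 3 genes (Slc2a3, Pgam1 and Pdk1), and 1 was called without batch in the model. The replicate block also left 1 there, since Pgam1 was lost, and changed no other count; 13 of 15 samples correlated best with a sample of their own number.

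Leaving out 1 library gave 0 to 2 genes over the 4 tissues (0 without spleen replicate 3 or 4, through Slc2a3), 1 to 2 between lymph nodes and spleen with thymus, and 0 to 1 between iLN and spleen, thymus and spleen, iLN and thymus, and mLN and spleen. Among the fold changes of Slc2a3, Pgam1 and Pdk1, signs turned only where the log2 fold change in the model of all samples was within 0.17 of 0. The log2 fold change of Pdk1 in iLN against mLN was -0.19 in batch Second alone and -0.13 to 0.27 on leaving out 1 library. That of Pgam1 was 0.0236 in batch First alone for lymph nodes against spleen and thymus (-0.179 to 0.0071 leaving out 1 library), 0.0121 in batch Second alone for iLN against thymus, and -0.25 there for mLN against spleen (-0.0573 to 0.18). Differences in share moved to 0.561 (1 TPM added) and 3.29 percentage points (batch First) for Pfkp and to 0.208 points (batch First) for Aldoc. On leaving out 1 library they were -1.43 to 1.44 points for Pfkp, 11.7 to 21.2 for Hk2 and -0.303 to 0.0112 for Aldoc. The cause was not tested. Adding counts of near-identical copies to the genes, and running all settings on Epas1, Myc and Ero1l, were chosen after seeing the data. The copies changed no count. Epas1, Myc and Ero1l kept their directions in the comparisons in which they were called. For lymph nodes against spleen and thymus Epas1 lost its call in 2 of 24 settings, each batch alone (adjusted p up to 0.151). Ero1l lost its call in thymus against spleen in 3 of 25 (up to 0.129) and in iLN against thymus in 1 of 25 (0.373).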
